A study of Drosophila melanogaster with 6 samples.

Results

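Neuropeptide and peptide hormone genes were examined in anterodorsal projection neurons (adPNs) of the Drosophila antennal lobe, the second-order olfactory neurons of 1 neuroblast lineage. The set was a list of 43 gene symbols that covers brain neuromodulators, gut and diuretic peptides, clock outputs, ecdysis hormones, insulin-like peptides and glycoprotein hormone subunits. Of these, 42 had an identifier among the 17471 genes in the deposited counts, and Nplp2 was not analysed here. The libraries were 3 wild-type and 3 labelled acj6 mutant, whose titles read acj66, all from adPNs at 36 to 40 h after puparium formation. A membrane-tethered GFP (mCD8-GFP) was counted in every library of both genotypes, at 76483 to 169250 reads. The labels give neither the lesion, the driver nor the number of cells or animals behind a library, so the tests set genotype against the spread of these libraries, and whether that spread is biological or technical is not known.

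Neuropeptides are cut from larger precursors in the secretory pathway, packed into dense-core vesicles and released to act mostly on G-protein-coupled receptors. In insects many neurons pair a fast transmitter with a peptide, while neurosecretory cells make peptides in bulk under the bHLH factor Dimmed. In the fly antennal lobe, short neuropeptide F, tachykinin, SIFamide and other peptides are known to modulate odour responses, with sources in sensory neurons, local neurons and a few large extrinsic cells. Projection neurons themselves are mainly cholinergic.

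Gene counts came to between 24467328 and 38279909 per library, so that 3 counts corresponded to between 0.0784 and 0.123 CPM, the count scaled to a common library size. acj6, the mutated gene, stood at 146, 143 and 158 CPM in the wild type and at 276, 248 and 228 CPM in the mutant-labelled libraries. Its count was thus higher under the mutant label (log2 fold change 0.75 ± 0.12 SE, edgeR adjusted p 0.0124), and since the lesion is not stated, this count cannot serve as a check of the genotype. The lineage and neuron markers C15, ChAT, elav and nSyb were above 50 CPM in all 6 libraries, with overlapping groups. kn, a COE-family transcription factor gene, and brp, the active zone scaffold gene, were higher in the mutant-labelled libraries. kn was at 492, 466 and 403 CPM against 1174, 1402 and 1419 CPM (log2 fold change 1.55 ± 0.12, edgeR adjusted p 0.00223), and brp at 3772, 3958 and 3646 CPM against 5949, 5789 and 5799 CPM (0.62 ± 0.06, edgeR adjusted p 0.00243). The glial factor repo was between 0.664 and 3.04 CPM. dimm, the gene for Dimmed, had between 0 and 0.401 CPM in any library. Genes known as glial (nrv2), hemocyte (Pxn) or aminergic (Tbh) were nevertheless abundant at up to 466, 5475 and 217 CPM. These are the highest genes of their lists, and the others varied. Every other hemocyte and fat body gene was at or below 10.4 CPM, with Hml at 0 to 0.743 CPM. Among aminergic genes, Tdc2 was at 3.04 to 4.38 CPM and Vmat at 41.2 to 189 CPM. The glial gene Gs2 was at 118 to 180 CPM.

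Peptide genes were on in the adPN libraries at about the share of other genes or below it. Summed over all 42 genes, the wild-type libraries held 427, 572 and 486 CPM, and the mutant-labelled libraries held 295, 384 and 369 CPM. The 3 wild-type sums were all above the 3 mutant-labelled sums. Taking a gene as on when it had at least 10 CPM in all 3 libraries of a genotype, 11 of 42 were on in the wild type (26.2%, against 31.6% of all genes) and 7 in the mutant-labelled libraries (16.7%, against 30.9%). All 7 were also on in the wild type. By the same rule, 5 of 8 glial genes and 6 of 9 genes of other transmitters were on in the wild type. In the mutant-labelled libraries 4 and 5 were. Being on does not by itself place the reads of a gene in adPNs, and the cells behind the peptide reads were not tested. None reached 50 CPM in all 3 libraries of a genotype, and at 1 CPM the counts were 24 and 22. At the other end, Gpa2 had no count in any library and ETH, the ecdysis-triggering hormone gene, had at most 2.

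The 7 genes on in both genotypes were SIFa, Dh31, Nplp1, Ilp1, Ilp3, spab and Gpb5. AstA, Ms, AstC and Proc were on in the wild type alone, by this cut-off. Per kilobase of transcript the wild-type order was led by SIFa (77.6 ± 29.0 CPM per kb, SD, n = 3), Gpb5 (74.2 ± 14.9), Ilp1 (66.0 ± 20.7) and Ilp3 (47.9 ± 6.49). SIFa stood above 92.2% of all genes on that scale. Of the 41 pairs of neighbours in the wild-type order, 40 had overlapping libraries, as had all 41 in the mutant-labelled order, so only the broad order can be read.

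**Figure D1:**
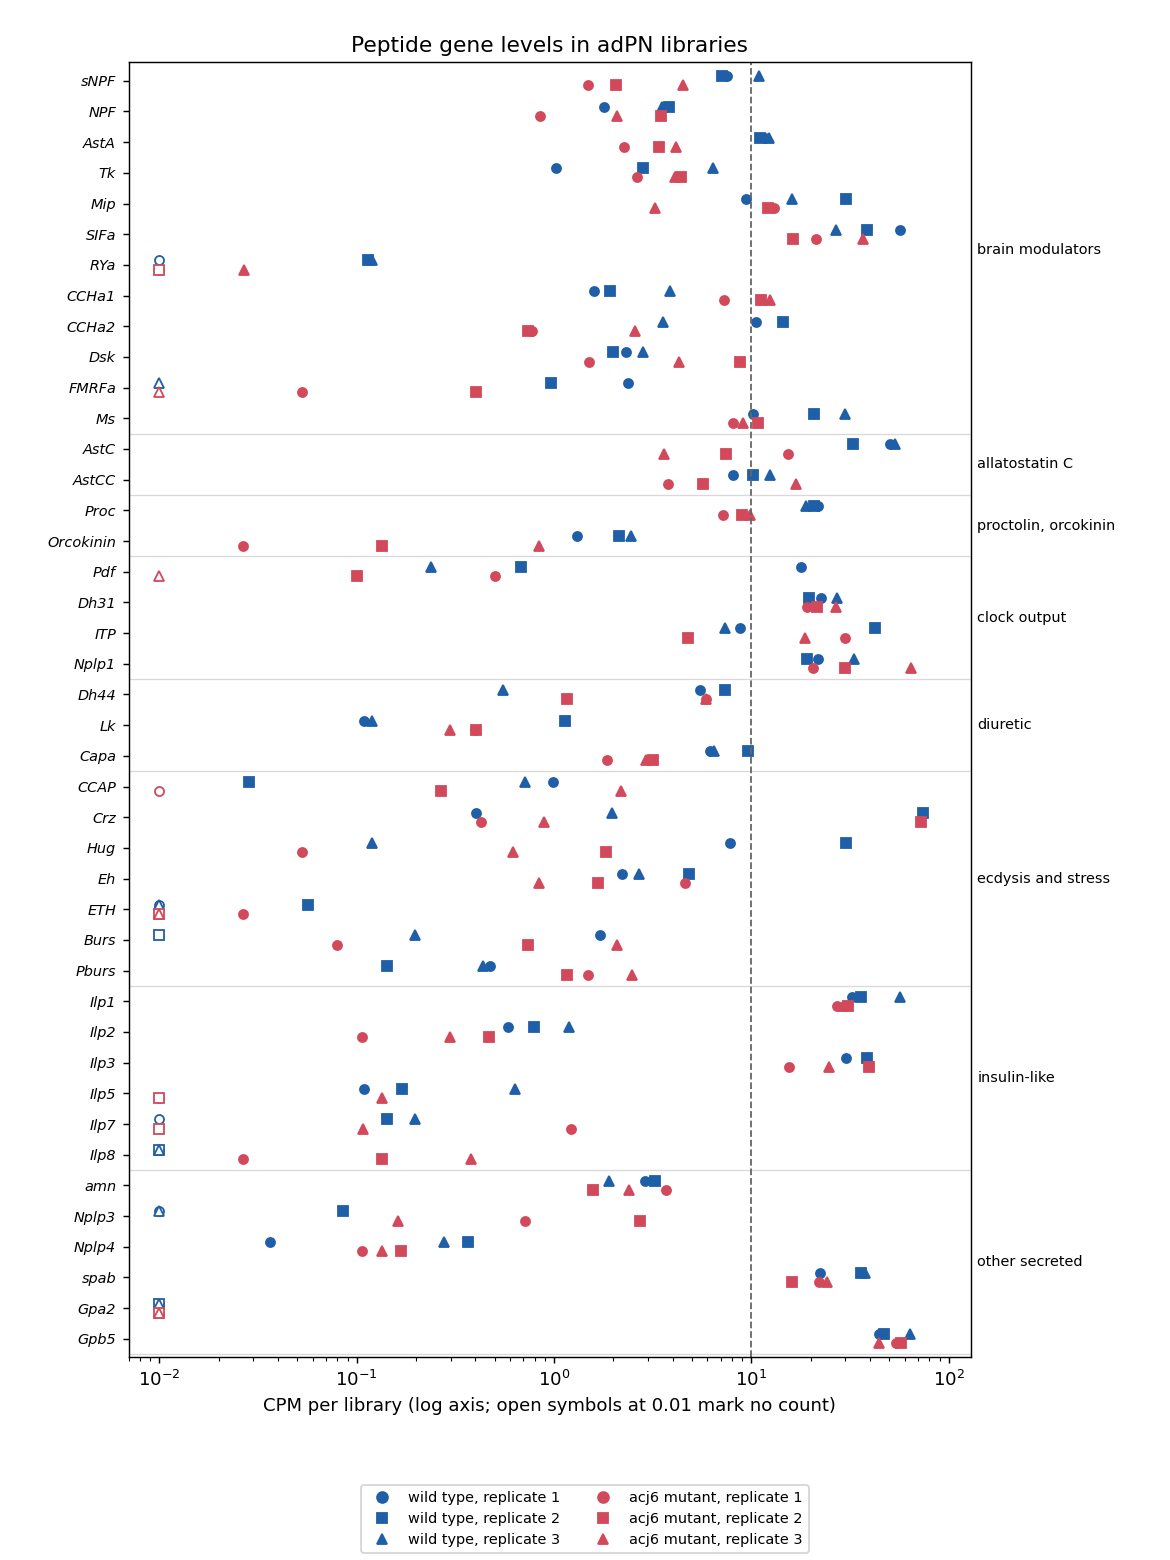
CPM of each of the 42 peptide genes in the 6 libraries, on a log axis and grouped by role; blue is wild type, red is acj6 mutant, circles, squares and triangles are replicates 1 to 3, open symbols mark no count and the dashed line is 10 CPM. In the wild type 11 genes have all 3 libraries at or above the line, and in the mutant-labelled libraries 7 do.

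AstC and Proc fell in the mutant-labelled libraries, and no peptide gene was called higher. AstC encodes allatostatin C, a peptide known to inhibit juvenile hormone synthesis in other insects and to act in fly clock circuits, and Proc encodes the precursor of proctolin, a pentapeptide that modulates muscle contraction. Of 34 genes that passed the filter on low counts, 2 were called lower (5.88%) against 1.33% of all 9229 genes tested. None was called higher by edgeR, against 3.07% of all genes. At an unadjusted p under 0.05 the counts were 9 lower and 2 higher, or 26.5% and 5.88%, against 7.14% and 9.47% of all genes. DESeq2 called 7 lower (against 4.08%) and 2 higher (against 7.13%). In bulk libraries, fewer cells of a type and less RNA per cell cannot be told apart.

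AstC (FBgn0032336, chromosome arm 2L) was counted at 50.4, 32.8 and 53.3 CPM in wild-type replicates 1 to 3 and at 15.4, 7.45 and 3.62 CPM in mutant-labelled replicates 1 to 3. The lowest wild-type library was above the highest mutant-labelled one. The means were 45.5 ± 11.1 and 8.84 ± 6.04 CPM (SD, n = 3), a 5.15-fold difference with a log2 fold change of -2.36 ± 0.49 (SE, edgeR adjusted p 0.0329). The call held without mutant-labelled replicate 1 and was lost without any other library, where the adjusted p was between 0.056 and 0.12, and was also lost with the length trend removed (log2 fold change -2.28 ± 0.52, adjusted p 0.0545). The log2 fold change stayed between -3.04 and -1.98 over all alternatives. AstCC, the neighbouring gene on 2L and a paralog with a related peptide, was at 8.10, 10.2 and 12.4 CPM against 3.80, 5.68 and 16.9 CPM. Its groups overlapped, and its log2 fold change of -0.22 had a 95% interval of -1.50 to 1.06.

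Proc (FBgn0045038, 2L) was counted at 21.7, 20.9 and 19.0 CPM in the wild type and at 7.19, 8.96 and 9.80 CPM in the mutant-labelled libraries. Libraries of each genotype lay close together and the groups were well apart. The means were 20.5 ± 1.36 and 8.65 ± 1.33 CPM, with a log2 fold change of -1.25 ± 0.29 (edgeR adjusted p 0.0466). This call was lost when any 1 library was left out, when no filter was used and under the replicate block, with an adjusted p of up to 0.17. The log2 fold change itself stayed between -1.34 and -1.13 over all alternatives. Orcokinin, a peptide of gut and brain cells, was at 1.31 to 2.46 CPM in the wild type and at 0.0265 to 0.837 CPM in the mutant-labelled libraries (adjusted p 0.363).

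Other genes had groups that did not overlap without passing the threshold. The wild type was higher for 9 of the 34 tested genes (26.5%, against 11.5% of all genes) and the mutant-labelled libraries for 2 (5.88%, against 11.7%). The 9 were AstC, Proc, Orcokinin, sNPF, AstA, CCHa2, Capa, Ilp1 and Ilp2, and the 2 were CCHa1 and Pburs. All 34 tested genes passed the filter cut-off of 0.305 CPM in at least 1 library of each genotype, and 25 of them in all 6. The median log2 fold change over the 34 was -0.49, against a median of -0.01 over all genes tested. Of the 34, 26 (76.5%) were below 0 against 50.5% of all genes. The mean over the 34 was -0.77, without a mean over all genes to set beside it. It includes Pdf (-4.91) and Hug (-3.93), the lowest values and both uneven among libraries.

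**Figure D2:**
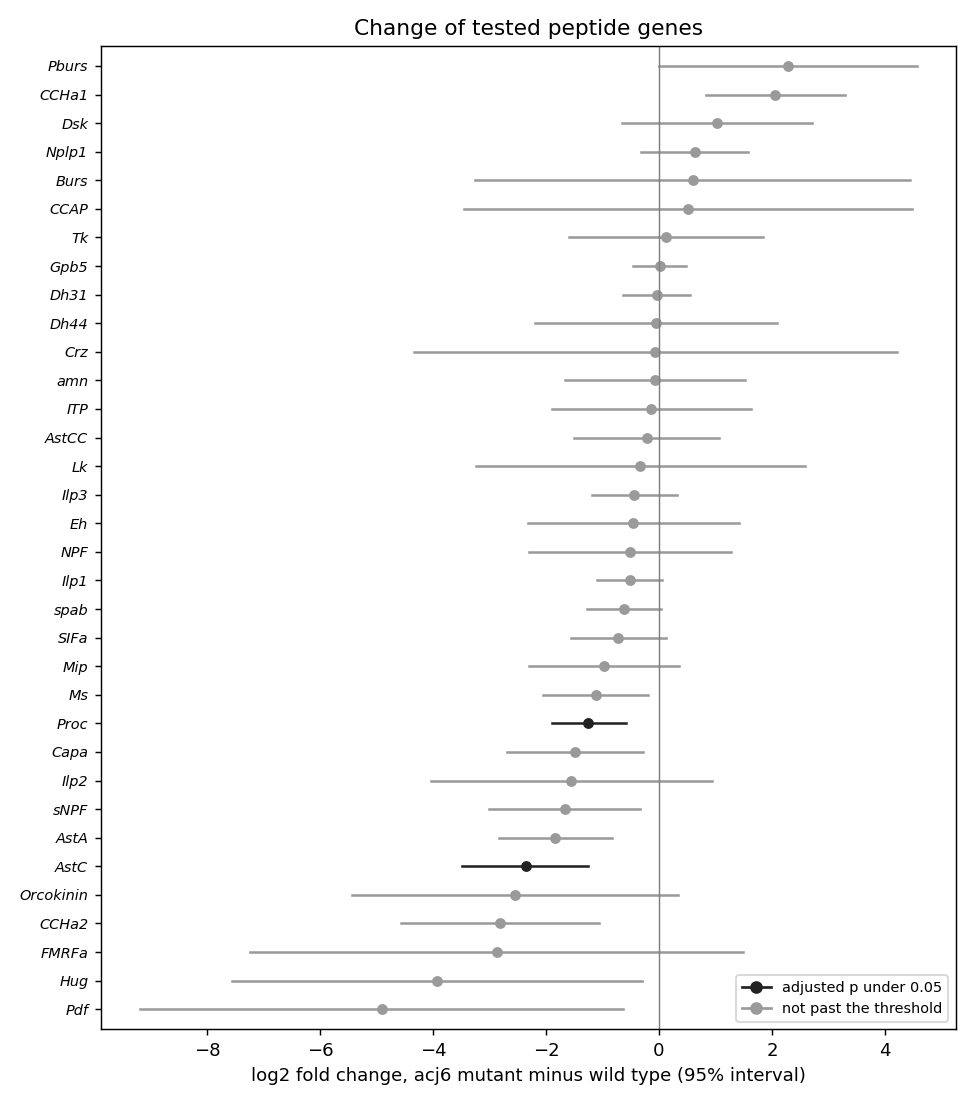
Log2 fold change (mutant minus wild type, x axis) with its 95% interval for the 34 tested peptide genes, ordered by size; dark symbols passed an adjusted p under 0.05. AstC (-2.36) and Proc (-1.25) are the 2 dark symbols, and 26 of the 34 points lie below 0.

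Among the brain modulators, none of 11 tested genes was called by edgeR, while 4 lower and 1 higher had an unadjusted p under 0.05 (against 7.14% and 9.47% of all genes) and DESeq2 called 3 lower and 1 higher (against 4.08% and 7.13%). AstA, which encodes allatostatin A, a peptide tied to feeding and sleep, was at 11.7, 11.1 and 12.3 CPM against 2.26, 3.41 and 4.16 CPM. Every wild-type library was above every mutant-labelled one (log2 fold change -1.84 ± 0.44, edgeR adjusted p 0.0528). AstA was called with the stricter filter on low counts (adjusted p 0.0353) and by DESeq2 (2.54e-05). sNPF, the short neuropeptide F precursor and a well-known modulator in olfactory sensory neurons and Kenyon cells, was at 7.51, 7.07 and 11.0 CPM against 1.49, 2.07 and 4.51 CPM (-1.66 ± 0.59, edgeR adjusted p 0.177, DESeq2 0.0292). It was on in neither genotype by the 10 CPM rule, and made up between 0.504% and 2.27% of the peptide gene counts of a library.

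The CCHamide genes CCHa1 and CCHa2, which encode gut and brain peptides with separate receptors, stood in opposite directions. CCHa1 was at 1.60, 1.93 and 3.89 CPM in the wild type and at 7.25, 11.2 and 12.5 CPM in the mutant-labelled libraries. The groups were apart, with a log2 fold change of 2.06 ± 0.54 (edgeR adjusted p 0.0751). CCHa1 passed the threshold with the stricter filter (adjusted p 0.0457) and in DESeq2 (0.000823). CCHa2 was at 10.6, 14.5 and 3.57 CPM against 0.770, 0.735 and 2.56 CPM (-2.81 ± 0.77, edgeR adjusted p 0.084, DESeq2 0.00273). The difference between their changes was not tested.

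**Figure D3:**
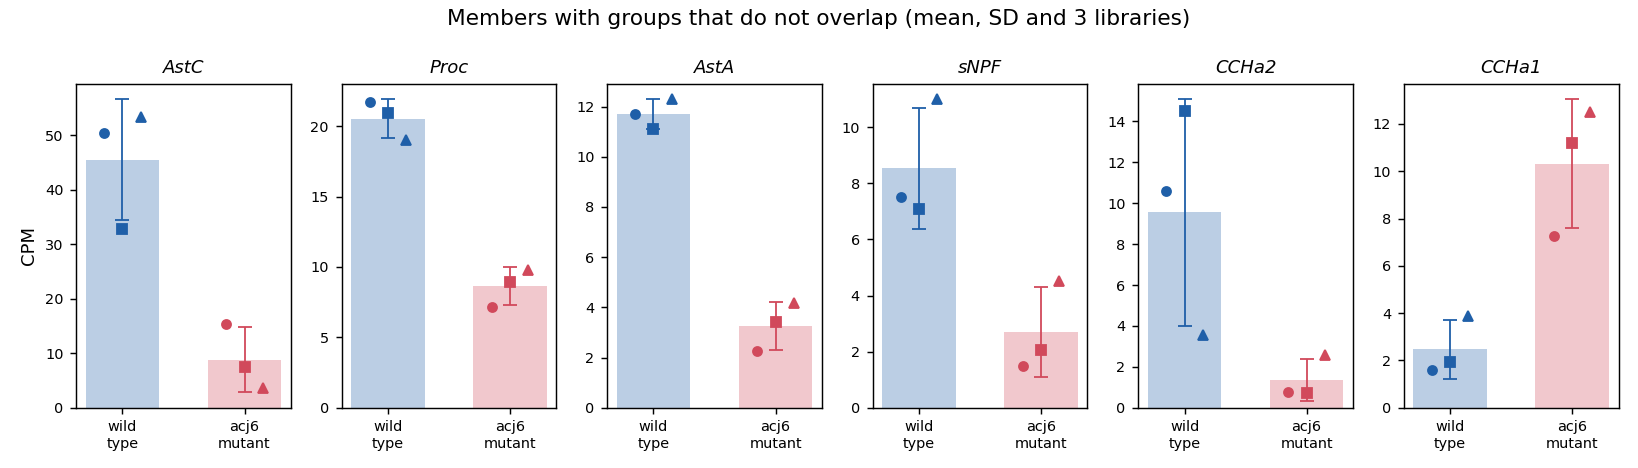
CPM (y axis, separate scale per panel, from 0) of 6 peptide genes by genotype; bars are means, error bars SD over 3 libraries, and circles, squares and triangles replicates 1 to 3. In AstC, Proc, AstA, sNPF and CCHa2 every wild-type library is above every mutant-labelled one, and in CCHa1 every one is below; only AstC and Proc passed the edgeR threshold.

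SIFa, the precursor of SIFamide, a peptide of a few large brain neurons known to arborize in the antennal lobe, was at 57.0, 38.7 and 26.8 CPM against 21.2, 16.3 and 36.8 CPM. The groups overlapped (log2 fold change -0.72, 95% interval -1.56 to 0.12, adjusted p 0.385), and the exons of SIFa overlap those of Start1 on the other strand, so its count is uncertain. Ms, the myosuppressin gene, was at 10.2, 20.7 and 29.9 CPM against 8.04, 10.8 and 9.07 CPM (-1.12 ± 0.41, adjusted p 0.192). Mip (3.27 to 30.3 CPM over the 6 libraries), NPF (0.849 to 3.83), Tk (1.02 to 6.39) and Dsk (1.51 to 8.72) had overlapping groups. Tk, the tachykinin gene used by antennal lobe local neurons, was at 3.42 ± 2.73 and 3.72 ± 0.932 CPM. FMRFa stayed at or below 2.37 CPM and RYa at or below 0.119 CPM.

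Genes known as clock outputs ranged from even to uneven across libraries. Dh31, a calcitonin-like peptide of clock and gut cells, was at 22.6, 19.6 and 27.3 CPM against 19.2, 21.5 and 26.9 CPM (log2 fold change -0.04, 95% interval -0.63 to 0.55). Nplp1, a precursor found in brain and Apterous neurons, was at 21.7, 19.2 and 33.2 CPM against 20.5, 29.7 and 64.6 CPM (interval -0.32 to 1.58). Its log2 fold change of 0.63 was 0.03 without mutant-labelled replicate 3, the highest library. ITP, the ion transport peptide gene, ranged from 7.34 to 42.5 CPM in the wild type and from 4.78 to 29.7 CPM in the mutant-labelled libraries. edgeR called none of these 4 genes, and 1, Pdf, had an unadjusted p under 0.05. DESeq2 called none of the other 3 and gave no adjusted p for Pdf.

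Crz and Pdf were high in single libraries and near 0 in the others. Crz, which encodes corazonin, a stress and metabolic peptide of few neurosecretory cells, had 0.401, 74.5 and 1.98 CPM in the wild type and 0.425, 72.4 and 0.891 CPM in the mutant-labelled libraries. Replicate 2 held 2623 counts in the wild type and 2167 under the mutant label, with a CPM 37.5 and 81.3 times that of the next library. Pdf, the pigment-dispersing factor of clock neurons, had 17.8 CPM in wild-type replicate 1 and at most 0.682 CPM elsewhere. Its fitted log2 fold change of -4.91 (adjusted p 0.219) thus rests on wild-type replicate 1.

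Among genes with at least 10 CPM in some library of the genotype, such a pattern (the highest library at least 5 times the next) was found for 2 of 19 peptide genes in the wild type and 1 of 14 in the mutant-labelled libraries, against 0.443% and 0.875% of all genes. Hug, the hugin gene of feeding circuits, was uneven as well at 7.80, 30.1 and 0.119 CPM against 0.0531, 1.84 and 0.621 CPM. Its groups overlapped, and it was 1 of the 7 genes that DESeq2 called lower (log2 fold change -3.93 ± 1.60 and adjusted p 0.253 in edgeR, adjusted p 0.0417 in DESeq2). Outside the 43 symbols, Ptth, the prothoracicotropic hormone gene of a pair of neurons in each brain hemisphere, had 104 CPM in wild-type replicate 2 and 5.63 CPM or less elsewhere, and its exons overlap those of cold on the other strand. The other peptide genes outside the 43 symbols were Akh, the adipokinetic hormone gene (3.04 to 19.1 CPM over the 6 libraries), Ilp6 (1.44 to 3.63), Trissin (0.0810 to 1.36), natalisin (0.0284 to 0.999), CNMa (0 to 0.476) and Ilp4 (0 to 0.0852), all with overlapping groups. Wild-type replicate 2 also held the most counts of the cuticle genes Cpr100A (32.4 CPM, against 7.15 and 6.67 in the other wild-type libraries) and Lcp65Ad. The source of these reads was not tested.

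**Figure D4:**
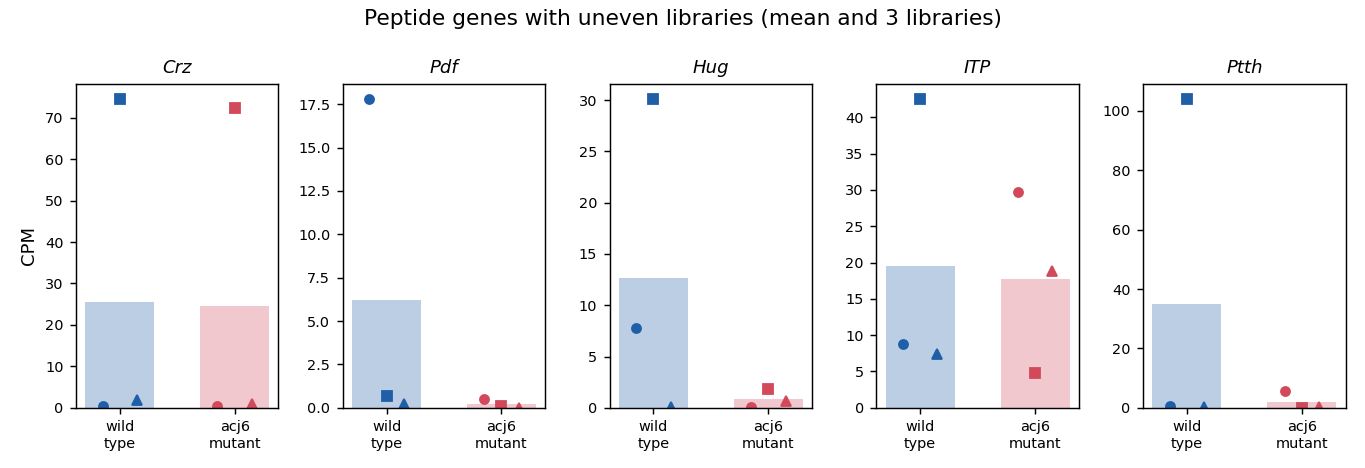
CPM (y axis, separate scale per panel, from 0) of Crz, Pdf, Hug, ITP and Ptth; bars are means and circles, squares and triangles replicates 1 to 3. Crz reaches 74.5 and 72.4 CPM in replicate 2 of the 2 genotypes, Pdf 17.8 CPM in wild-type replicate 1 and Ptth 104 CPM in wild-type replicate 2.

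Of the diuretic peptides, Capa was at 6.20, 9.68 and 6.47 CPM against 1.86, 3.18 and 2.92 CPM (log2 fold change -1.49 ± 0.53, edgeR adjusted p 0.18, DESeq2 0.0114), with the groups apart. Dh44, a CRF-like hormone gene, ranged from 0.555 to 7.33 CPM over the 6 libraries and Lk, leucokinin, from 0.109 to 1.14 CPM. Among ecdysis hormones, Eh was at 0.837 to 4.86 CPM and CCAP at 0 to 2.19 CPM, with overlapping groups. Burs and Pburs encode the subunits of the tanning hormone bursicon. Pburs was at 0.474, 0.142 and 0.436 CPM against 1.49, 1.17 and 2.48 CPM (adjusted p 0.298), while Burs was at 0 to 1.71 CPM against 0.0796 to 2.08 CPM.

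Insulin-like and glycoprotein hormones included some of the most abundant peptide transcripts. Ilp1, an insulin-like peptide known from brain insulin-producing cells of pupae, was at 32.5, 35.9 and 56.6 CPM against 27.1, 30.8 and 29.2 CPM. The groups just failed to overlap, and the change did not pass the threshold (log2 fold change -0.52, 95% interval -1.10 to 0.06, adjusted p 0.355). Exons of Ilp1 overlap CG32052 on the same strand, so its count is uncertain. Ilp3 was at 30.3, 38.4 and 39.1 CPM against 15.5, 39.4 and 24.8 CPM (interval -1.19 to 0.32), while Ilp2, made in the same insulin-producing cells of the adult, stayed at or below 1.19 CPM. Ilp5, Ilp7 and Ilp8 had at most 16, 46 and 14 counts in a library.

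Gpb5, the beta subunit of the glycoprotein hormone GPA2/GPB5, was even across libraries at 44.6, 46.9 and 63.6 CPM against 54.0, 57.6 and 44.3 CPM (log2 fold change 0.01, 95% interval -0.46 to 0.48). Its partner Gpa2 was listed at 0 in all 6 libraries, and its gene lies on an unplaced scaffold in the Ensembl annotation. Whether the genome used for counting held that scaffold is not given in the sources used here. spab, a precursor of brain peptides, was at 22.4, 36.0 and 37.9 CPM against 22.1, 16.1 and 24.2 CPM (interval -1.28 to 0.03). amn, the amnesiac gene of memory neurons, was at 1.57 to 3.69 CPM over the 6 libraries, and Nplp4 at 0.0365 to 0.369 CPM. Nplp3 had 0, 3 and 0 counts in the wild type and 27, 82 and 6 in the mutant-labelled libraries; it did not pass the edgeR filter and had a DESeq2 adjusted p of 0.0436.

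Receptor genes showed no called change. Per kilobase of transcript, the 40 receptor genes summed to 413 to 468 CPM per kb in the wild type and 477 to 537 in the mutant-labelled libraries. The 42 peptide genes summed to 483 to 633 and 317 to 470 CPM per kb, above the receptors in every wild-type library and below them in every mutant-labelled one. The medians per gene did not cross. They were 4.41 CPM per kb for peptide genes and 1.76 for receptors in the wild type, and 2.48 and 1.96 in the mutant-labelled libraries. The most abundant receptor genes per length were CCKLR-17D3 for drosulfakinin (144 CPM per kb in the wild type), TkR99D for tachykinin (93.1), CCKLR-17D1 for drosulfakinin (38.6) and CCHa2-R for CCHamide 2 (31.9). TkR99D was at 272, 290 and 243 CPM in the wild type and at 210, 312 and 270 CPM in the mutant-labelled libraries, with overlapping groups (95% interval of the log2 fold change -0.38 to 0.33). CCKLR-17D3 was at 356, 313 and 295 CPM against 408, 483 and 412 CPM, with the groups apart (edgeR adjusted p 0.0808, DESeq2 0.00729). CCKLR-17D1 was at 124, 114 and 131 CPM against 192, 148 and 144 CPM, again apart (edgeR adjusted p 0.229, DESeq2 0.094). CCHa2-R lay the other way at 79.1, 103 and 81.8 CPM against 54.0, 71.6 and 52.6 CPM (edgeR adjusted p 0.154, DESeq2 0.0517). No receptor was called by edgeR among 35 tested (4.4% of all genes were, in either direction), while 5 higher and 3 lower had an unadjusted p under 0.05 (against 9.47% and 7.14% of all genes) and DESeq2 called 3 higher and 2 lower (against 7.13% and 4.08%). Their median log2 fold change was 0.01. In DESeq2 the 3 higher were CCKLR-17D3, PK2-R2 and TrissinR, and the 2 lower were sNPF-R and Lgr4. TrissinR was at 11.1, 3.63 and 8.33 CPM against 29.7, 21.8 and 13.0 CPM (edgeR adjusted p 0.134, DESeq2 0.0262). Lgr4 was at 31.6, 30.9 and 35.3 CPM against 22.0, 7.79 and 13.6 CPM (edgeR adjusted p 0.125, DESeq2 0.0286). The groups were apart in both genes.

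Receptors for the peptides that were on differed widely in level. The SIFamide receptor gene SIFaR was at 109, 118 and 155 CPM against 179, 74.4 and 53.5 CPM, and the Dh31 receptor gene Dh31-R at 23.3, 25.3 and 26.0 CPM against 24.1, 41.7 and 43.3 CPM. The insulin receptor gene InR was at 158, 166 and 149 CPM against 173, 141 and 162 CPM (interval -0.28 to 0.30). The groups overlapped in all 3 genes. The receptor genes AstC-R1 (2.18 to 12.5 CPM over all libraries), AstC-R2 (3.06 to 8.04), AstA-R1 (2.86 to 10.4), MsR1 (0.198 to 6.05) and MsR2 (0.369 to 7.14) were low. AstA-R2 (0 to 2.23), the proctolin receptor gene Proc-R (0 to 0.511) and Lgr1, the receptor for GPA2/GPB5 (0.0796 to 1.48), were lower still. Gyc76C, reported as a receptor for an Nplp1 peptide, was listed at 0 in every library, and its exons overlap CG42637 on the same strand, so its count is uncertain. The sNPF receptor gene sNPF-R was at 50.3, 31.0 and 30.9 CPM against 21.9, 13.9 and 22.4 CPM, with the groups apart (log2 fold change -0.95 ± 0.30, edgeR adjusted p 0.132, DESeq2 0.0314). The pyrokinin receptor gene PK2-R2 lay the other way at 26.3, 35.9 and 12.4 CPM against 48.5, 44.9 and 81.7 CPM (1.23 ± 0.39, edgeR adjusted p 0.133, DESeq2 0.0245).

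Genes for making and releasing peptides were present in the adPN libraries. Of 20 genes for processing enzymes, dense-core vesicle proteins and peptidases, 13 were on in each genotype. Per length, the wild-type order was led by 2 amidating enzyme genes and 2 vesicle genes. The enzyme genes were Pal2 (445 CPM per kb in the wild type and 535 in the mutant-labelled libraries) and Phm (204 and 183). The vesicle genes were Rab2 (340 and 271) and IA-2 (50.8 and 52.6). In the mutant-labelled libraries Nep3, at 72.7 CPM per kb, stood above IA-2. Pal2 was at 819, 985 and 783 CPM against 1012, 1148 and 947 CPM, Phm at 339, 334 and 260 against 225, 353 and 256 CPM, and IA-2 at 323, 340 and 362 against 345, 355 and 360 CPM, all with overlapping groups. The groups of Rab2 were apart, at 485, 458 and 484 CPM against 360, 380 and 398 CPM (log2 fold change -0.33 ± 0.09, edgeR adjusted p 0.0964, DESeq2 0.00778). Exons of Pal2 and Phm overlap genes on the other strand. amon, the gene for the prohormone convertase of neuroendocrine cells, was at 75.8 to 88.0 CPM over all libraries, with groups that overlapped.

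Of 19 tested genes in this list, edgeR called 1 higher and 1 lower (10.5%, against 4.4% of all genes). At an unadjusted p under 0.05 there were 1 higher and 5 lower (against 9.47% and 7.14% of all genes). DESeq2 called 1 higher (Nep3) and 4 lower (Rab2, Syt4, Syt7 and Cadps), against 7.13% and 4.08% of all genes. Nep3, a neprilysin-family peptidase gene, was at 63.7, 31.4 and 42.7 CPM in the wild type and at 235, 323 and 216 CPM in the mutant-labelled libraries. Every mutant-labelled library was above every wild-type one (5.61-fold, log2 fold change 2.49 ± 0.27, edgeR adjusted p 0.0034). The Nep3 call held in all 12 alternatives, with an adjusted p of at most 0.0199. Syt4, a synaptotagmin found on peptide-containing vesicles, fell from 91.6, 82.7 and 65.8 CPM to 47.4, 35.6 and 33.5 CPM (-1.04 ± 0.21, adjusted p 0.0292), a call lost without replicate 1 or 2 of the wild type or replicate 2 or 3 of the mutant-labelled libraries (adjusted p up to 0.109). Cadps, a dense-core vesicle priming gene, was at 51.5, 47.9 and 51.8 CPM against 30.5, 22.3 and 32.6 CPM (edgeR adjusted p 0.068, DESeq2 0.00187). Syt7 was at 48.7, 36.3 and 38.2 CPM against 30.2, 18.4 and 19.5 CPM (edgeR adjusted p 0.121, DESeq2 0.0245).

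**Figure D5:**
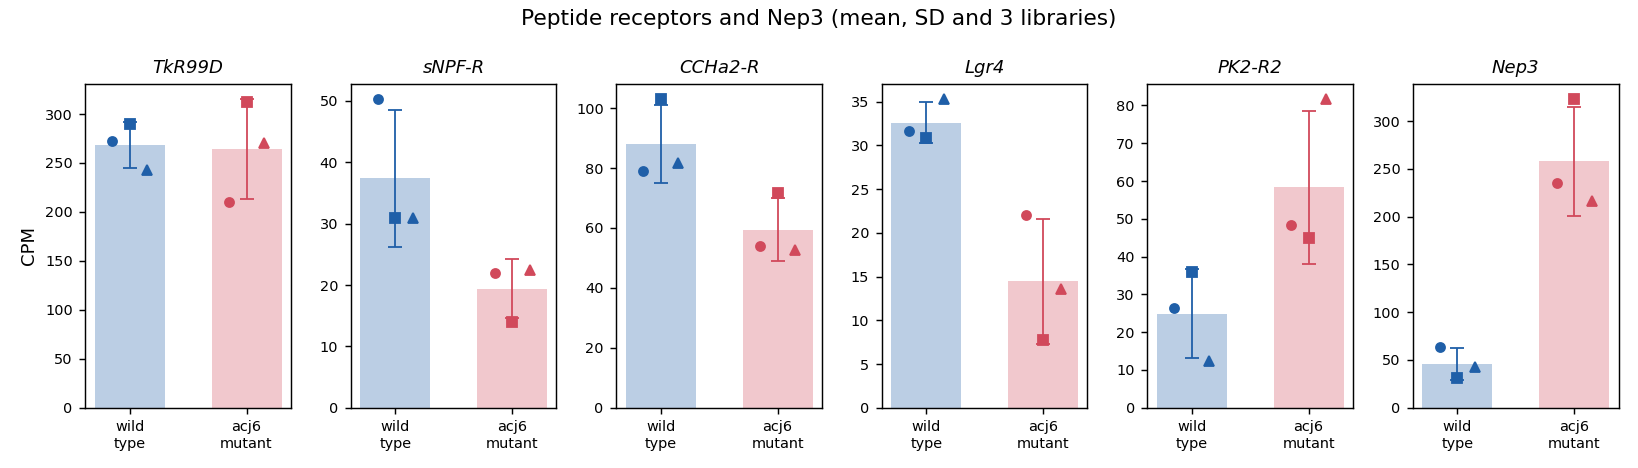
CPM (y axis, separate scale per panel, from 0) of 5 peptide receptor genes and the peptidase gene Nep3; bars are means, error bars SD over 3 libraries, and circles, squares and triangles replicates 1 to 3. Nep3 goes from a mean of 45.9 to 258 CPM and is the only one of the 6 past the edgeR threshold, while TkR99D stays at 268 and 264 CPM.

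Summed levels of some marker lists differed by genotype, in both directions. The 8 adPN and cholinergic genes, led by brp, summed to 6151 to 6655 CPM in the wild type and 9252 to 9349 CPM in the mutant-labelled libraries; acj6, kn and brp were called higher and none lower. The 9 counted genes of other transmitters, led by Tbh, summed to 429 to 554 against 275 to 380 CPM. Among them only the dopamine transporter gene DAT was called, and it was lower (edgeR adjusted p 0.0111). Vmat was at 116, 189 and 77.8 CPM against 65.6, 56.9 and 41.2 CPM (edgeR adjusted p 0.0669, DESeq2 0.00427). The groups of VGlut were also apart, with the wild type higher. Those of Gad1, VGAT, ple, SerT, Tdc2 and Tbh overlapped. The 8 glial genes, led by nrv2, summed to 652 to 740 against 519 to 574 CPM, with nrv2 lower (adjusted p 0.0425) and repo near 0. The 4 Kenyon cell genes, nearly all Pka-C1, summed to 313 to 384 against 209 to 216 CPM. Pka-C1 was called lower (edgeR adjusted p 0.0217), and the groups overlapped in ey, dac and prt. Mean levels were 3.13 against 3.07 CPM for ey, 13.4 against 13.9 CPM for dac and 4.66 against 3.29 CPM for prt.

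The 6 genes of epithelium, cuticle and trachea summed to 23.7 to 118 against 1.54 to 5.11 CPM. Cpr72Eb, the most abundant of them, was at 8.79, 30.1 and 12.6 CPM against 0.770, 0.0334 and 0.0540 CPM (edgeR adjusted p 0.0248), and Cpr100A and Lcp65Ad were at 0 in all mutant-labelled libraries. Cpr51A was also called lower (edgeR adjusted p 0.0105). In this list grh lay the other way, at 1.31, 1.08 and 0.675 CPM against 3.32, 3.08 and 1.38 CPM. Its groups were apart (edgeR adjusted p 0.479), while those of trh overlapped. The 3 lateral projection neuron genes, nearly all otp, summed to 508 to 658 against 484 to 527 CPM. The others in this list were low, with vvl at 2.74 to 6.71 against 1.57 to 5.10 CPM. Lim1 was at 5.36 to 10.4 against 2.04 to 5.39 CPM, and the groups overlapped in both genes. The 6 hemocyte and fat body genes, nearly all Pxn, summed to 4689 to 5182 against 3882 to 5491 CPM. Hml in this list had 1, 0 and 0 counts in the wild type and 28, 14 and 24 in the mutant-labelled libraries. Its groups were apart (edgeR adjusted p 0.11, DESeq2 0.0339), and those of Pxn, srp, NimC1, Lsp2 and Fbp1 overlapped. The 5 muscle genes, led by Mlc2, summed to 3.55 to 8.65 against 5.79 to 11.0 CPM. The part of these differences in the lower AstC, Proc, AstA and sNPF counts was not tested.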

How the data were processed

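Per the labels, total RNA of adPNs was made into libraries with a modified SMART-seq2 protocol, which amplifies full-length cDNA. The deposited values are raw read counts per gene. STAR 2.5.4, HTSeq 0.11.2 and bcl2fastq 2.19.0.316 are listed in the submitters' processing notes. Neither build and annotation nor the strand setting is given in the sources used here, so no coordinates are printed and 9 peptide genes with exons overlapping another gene have uncertain counts. Intervals and floors cover counting error and library spread only; reads carry no molecular identifiers.

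Symbols came from a table of FlyBase identifiers (17242 of 17471 genes matched) and transcript lengths from Ensembl 115 (BDGP6.54), as the median over a gene's transcripts. The 96 spike-ins, 3 transgenes and 5 counter summary entries were not used in the tests or library sizes; reads outside genes came to 8.59% to 10.9% of gene counts. Libraries were grouped by the genotype in their titles. Genes were filtered with filterByExpr, scaled with TMM and tested over all 6 libraries with edgeR 4.0.16 (R 4.3.3) quasi-likelihood, two-sided, on genotype, with Benjamini-Hochberg adjustment over all 9229 genes and a threshold of 0.05. CPM is relative to TMM-scaled gene counts. DESeq2 1.42.0, other scaling and filters, removal of each library's length trend (a spline with 3 degrees of freedom), the replicate number as a block and leaving out each library were alternatives.

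Every peptide gene is accounted for. Values per library are given for those on or called and for pathway genes called. The 4 genes of each pathway list most abundant per length in the wild type are named, as are the receptors of peptides that were on. Their values are given per library or, for low genes, as a range. Each marker list is named by its most abundant gene in CPM. Further genes were named after their values were seen. The members and lists were chosen with earlier results of these data known.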

Additional observations from a re-analysis of the deposited data

How the results depend on the processing

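The count of peptide genes called lower was 2 with RLE scaling and 3 with the stricter filter (5 CPM in 3 libraries), where 1 was called higher. It was 1 with no filter (AstC), 1 with the length trend removed (Proc) and 7 in DESeq2, which also called 2 higher. Leaving out 1 library gave 0 to 1 lower. Over all genes, 406 were called, 143 to 249 with 1 library left out and 1113 in DESeq2. Receptors called numbered 1 with no filter (PK2-R2), 1 with the length trend removed (CCKLR-17D3) and 5 in DESeq2. Processing genes called numbered 5 in DESeq2 (1 higher and 4 lower), 3 with the length trend removed (Nep3, Syt4 and Cadps) and 1 to 2 with 1 library left out. For genes on, 1 CPM gave 24 (wild type) and 22 (mutant-labelled), 50 CPM gave 0 and 0, and leave-outs gave 11 to 13 and 8. The cause of these changes was not tested.

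Libraries with the same replicate number did not deviate together (correlations 0.0164, -0.00131 and 0.0469), so over all genes the numbers were not taken to pair them; Crz, high in replicate 2 of both genotypes, was an exception. With the replicate number as a block, 1 peptide gene was called lower (AstC) and 293 genes in all. No peptide or pathway gene called by edgeR changed direction under any alternative run, and the marker genes were not followed through the alternatives. At 3 counts per library, levels below about 0.1 CPM could not be told from 0.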
